A study of Homo sapiens with 16 samples.

Results

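Calcium transport was described in MCF10A cells by 10 genes, of 26475 genes in the count table. They encode pumps that remove calcium from the cytosol (*ATP2B4*, *ATP2B1*, *ATP2A2* and *ATP2C1*), inositol trisphosphate (IP3) receptors that release it from the endoplasmic reticulum (*ITPR1*, *ITPR2* and *ITPR3*), and the sensors and channel of store-operated entry (*STIM1*, *STIM2* and *ORAI1*). The set was chosen from the data by the values of 1 member, since *ATP2B4* was the most robust of the genes that were higher with each of 2 inhibitors than with collagen alone. The levels of *ATP2B4* against collagen alone are therefore given as a description, with no test. The other 9 genes were taken by their role beside it, and all 10 passed the filter on low counts.

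A resting cell keeps cytosolic calcium far below the level outside the cell and in its stores. Receptors at the surface activate phospholipase C, which makes IP3, and IP3 opens receptors in the endoplasmic reticulum membrane through which stored calcium leaves. When the store empties, STIM proteins in that membrane sense the loss and open ORAI channels in the plasma membrane, while pumps driven by ATP return calcium to the stores or move it out of the cell. In mammary epithelium these carriers also serve the transport of calcium into milk.

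MCF10A is a spontaneously immortalized, non-tumorigenic epithelial line from human breast. The series compared 4 groups of 4 libraries to ask whether inhibition of DDR1, a collagen receptor kinase, and of RUNX transcription factors acted on shared genes. The control group had its medium changed on 2 occasions and received no collagen, with DMSO given as its treatment, and the second group received collagen type I at 0.05 mg/mL for 24 h with DMSO. The third group received the same collagen with the DDR1 inhibitor DDR1-IN-1 at 2 μM (DDR1i), and the fourth the same collagen with a RUNX inhibitor at 5 μM (RUNXi), a small molecule that keeps RUNX proteins from binding their partner CBFβ. Each inhibitor was present for 48 h, from 24 h before the collagen, and neither was given without collagen. Sodium hydroxide was added with the collagen for polymerization, and the control medium is not described as holding it. All groups were plated cultures of 1 line, and the labels do not say that replicates came from separate cultures, so that p-values measure the spread between these libraries, which may be technical.

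Total counts ranged from 12184619 to 44332378 per library, with the lowest 2 of the control group in control replicates 2 and 3. Levels are given as CPM (counts scaled to a common library total) after TMM normalization, and the threshold of every test was an adjusted p-value of 0.05. Collagen replicate 3 was removed in the study as an outlier of a principal component analysis. It is left out of group means and tests here, but not of levels per kb and correlations over all 16 libraries, and results that rest on this choice are given with it as well. It was above the other 3 collagen libraries for 7 of the 10 genes, and for 9 of the 10 it was within the range of the inhibitor libraries. All 8 basal markers, among them *KRT5*, *KRT14* and *TP63*, were detected in every library. Their summed level was 16320 to 22050 CPM with collagen, 12280 to 17470 with DDR1i and 19070 to 22340 with RUNXi, and its part in the results was not tested. Of 8 luminal markers, *KRT18* (332 to 576 CPM), *KRT8* (57.2 to 169), *EPCAM*, *GATA3* and *FOXA1* were also detected in every library. *PGR* had no count in any library, *KRT19* none in 9 and *ESR1* none in 6. The summed luminal level was 518.5 to 719 CPM with collagen, 557 to 751 with DDR1i and 502 to 562 with RUNXi. Of 5 fibroblast markers, *COL3A1* had no count in any library and *PDGFRA* none in 15 of 16, while *DCN* was detected in all, at 1.39 to 30.1 CPM. Of 3 endothelial markers, *CDH5* had no count in any library, and *PECAM1* and *KDR* had none in 2 each and reached 2.40 and 1.72 CPM. Of 3 leukocyte markers, *PTPRC* and *CD3E* had no count in 15 of 16 libraries, while *CD68*, which is not restricted to leukocytes, was at 8.53 to 28.7 CPM in all. The summed levels of the fibroblast, endothelial and leukocyte lists each overlapped between the groups.

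*ATP2B4* encodes the plasma membrane pump PMCA4, which moves calcium out of the cell and is activated by calmodulin. The gene is at chr1:203595960-203713209 on the plus strand (GRCh37), and its canonical transcript has 8697 bases in 21 exons. Since one inhibitor acts on RUNX proteins, the RefSeq promoter (the 250 bases before the annotated start, chr1:203626582-203626831, plus strand, GRCh38.p14) is printed with RUNX core motifs in capitals. The motifs searched were TGTGGT and TGCGGT on either strand, and no match overlapped another in the promoters shown.
ATP2B4: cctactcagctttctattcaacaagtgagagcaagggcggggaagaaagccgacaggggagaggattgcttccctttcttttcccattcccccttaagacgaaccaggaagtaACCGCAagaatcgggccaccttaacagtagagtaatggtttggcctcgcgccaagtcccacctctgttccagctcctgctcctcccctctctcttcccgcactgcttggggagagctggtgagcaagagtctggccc
The 1 match begins 137 bases before the start and reads on the opposite strand. Of 35116 RefSeq promoters of the same length, 5727 (16.31%) hold at least one such match, and of the 8 members with an entry 4 do. A match is a description of these letters, not of binding.

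*ATP2B4* was at 31.4, 27.5 and 26.7 CPM in the collagen libraries. With DDR1i it was at 50.2, 67.9, 67.9 and 78.5 CPM, and with RUNXi at 57.0, 67.6, 56.1 and 68.9 CPM. Every inhibitor library was thus above every collagen library in the comparison, and the library closest to them was DDR1i replicate 1. The 4 control libraries were at 39.1, 33.4, 32.0 and 43.97 CPM, between the collagen and the inhibitor libraries with no overlap on either side. The means were 28.5 ± 2.50 CPM (SD, n = 3) with collagen, 66.1 ± 11.7 (n = 4) with DDR1i, 62.4 ± 6.80 (n = 4) with RUNXi and 37.1 ± 5.50 (n = 4) in the control. The log2 fold change against collagen was 1.21 (SE 0.16) with DDR1i and 1.13 (SE 0.16) with RUNXi, and both comparisons share the collagen libraries. Leaving out 1 library at a time moved these values within 1.12 to 1.31 and 1.07 to 1.18. Collagen replicate 3 was at 50.1 CPM, above the whole control range and just under the lowest inhibitor library. With this library included the log2 fold changes were 0.96 (SE 0.18) and 0.86 (SE 0.18). In bulk RNA, a change in the share of cells that express a gene and a change in RNA per cell cannot be told apart.

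**Figure D1:**
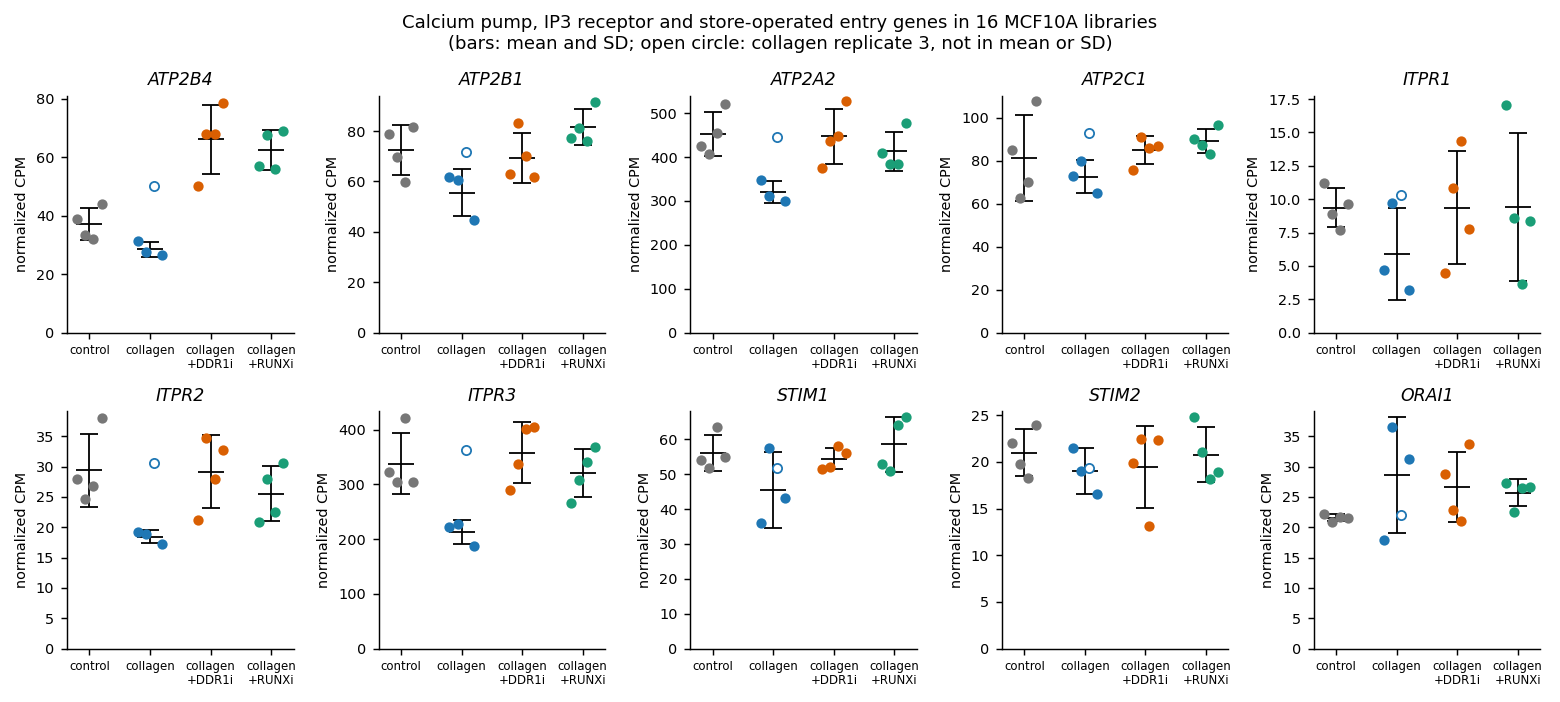
Normalized CPM (vertical axis, linear from 0) of the 10 calcium genes in each of 16 MCF10A libraries, by group (horizontal axis). Points are libraries, bars are mean and SD, and the open circle is collagen replicate 3, which is in neither: *ATP2B4* was at 50.2 CPM or more in all 8 inhibitor libraries and at 31.4 CPM or less in the 3 collagen libraries.

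*ATP2B1* encodes PMCA1, the plasma membrane pump found in most cell types (chr12:89981826-90103143, minus strand, GRCh37). It was at 61.6, 60.5 and 44.7 CPM with collagen, at 62.9, 83.3, 70.0 and 61.6 CPM with DDR1i, and at 77.3, 81.2, 75.9 and 91.7 CPM with RUNXi. All RUNXi libraries stood clear of the collagen libraries, whereas the lowest DDR1i library exceeded the highest collagen library only by a small margin. The log2 fold change against collagen was 0.32 (SE 0.15) with DDR1i and 0.55 (SE 0.15) with RUNXi, and the second was past the threshold. The call with RUNXi was kept in 5 of 11 fits that each left out 1 library (log2 fold change 0.42 to 0.61) and was lost without collagen replicate 2 or 4 or any RUNXi library. Collagen replicate 3 was at 71.7 CPM, within the inhibitor range. With it included the log2 fold changes were 0.22 (SE 0.14) and 0.44 (SE 0.14), neither past the threshold.

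*ATP2A2* encodes SERCA2, which pumps calcium back into the endoplasmic reticulum and is mutated in Darier disease of the skin (chr12:110718561-110788898, plus strand, GRCh37). It was at 348, 312 and 300.2 CPM with collagen and at 375, 436, 448 and 528 CPM with DDR1i. With RUNXi it was at 408, 383, 385 and 477 CPM, so that the collagen libraries were the lowest of the comparison for this pump too. The log2 fold change against collagen was 0.48 (SE 0.12) with DDR1i, past the threshold, and 0.36 (SE 0.12) with RUNXi, which was past it with DESeq2 and not with edgeR. The DDR1i call was kept in 5 of 11 fits without 1 library (0.39 to 0.54) and was lost without collagen 2 or 4, DDR1i 2, 3 or 4, or RUNXi 2. Collagen replicate 3 was at 445 CPM, within the inhibitor range. With it included the log2 fold changes were 0.34 (SE 0.13) and 0.22 (SE 0.13), neither past the threshold. *ATP2C1* encodes SPCA1, a Golgi pump for calcium and manganese that is mutated in Hailey-Hailey disease (chr3:130569439-130735556, plus strand, GRCh37). It ranged from 65.0 to 80.1 CPM with collagen, 75.8 to 91.1 with DDR1i and 83.0 to 96.5 with RUNXi, with log2 fold changes of 0.22 (SE 0.13) and 0.29 (SE 0.13) that were not past the threshold.

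*ITPR3*, which encodes the type 3 IP3 receptor (chr6:33588142-33664351, plus strand, GRCh37), was at 221, 228 and 187 CPM with collagen. It was at 290, 338, 401 and 405 CPM with DDR1i and at 266, 309, 340 and 369 CPM with RUNXi. No inhibitor library overlapped these collagen libraries, but collagen replicate 3, at 363 CPM, was within the range of the inhibitor libraries. The log2 fold change was 0.75 (SE 0.13) with DDR1i and 0.59 (SE 0.13) with RUNXi, and both were past the threshold. Leaving out 1 library kept the DDR1i call in 11 of 11 fits (0.67 to 0.83) and the RUNXi call in 8 of 11 (0.51 to 0.67), with the latter lost without collagen 4, RUNXi 3 or RUNXi 4. None of these fits held collagen replicate 3. With it included the log2 fold changes were 0.51 (SE 0.16) and 0.35 (SE 0.16), and neither was past the threshold. *ITPR2*, the type 2 receptor gene (chr12:26488285-26986127, minus strand, GRCh37), was at 19.2, 18.9 and 17.2 CPM with collagen and at 21.2, 34.7, 28.0 and 32.7 CPM with DDR1i. With RUNXi it was at 20.9, 28.0, 22.5 and 30.5 CPM. It did not overlap the collagen libraries either, but its log2 fold changes of 0.66 (SE 0.20) and 0.46 (SE 0.20) were not past the threshold with edgeR. With DDR1i it was past it with DESeq2, with no filter on low counts and with a replicate block. Collagen replicate 3 was at 30.6 CPM for *ITPR2*, within the inhibitor range, and with it included the log2 fold changes were 0.43 (SE 0.20) and 0.23 (SE 0.20). *ITPR1*, the type 1 receptor gene (chr3:4535029-4889190, plus strand, GRCh37), ranged from 3.17 to 17.0 CPM over all libraries, and its groups overlapped. Its log2 fold changes of 0.67 and 0.68 had an SE of 0.48 each.

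No entry gene was past the threshold against collagen. *STIM1*, the main sensor of store depletion (chr11:3875757-4114440, plus strand, GRCh37), was at 36.0, 57.5 and 43.3 CPM with collagen, 51.6 to 58.0 with DDR1i and 50.9 to 66.4 with RUNXi. *STIM2*, a sensor that responds to smaller losses of stored calcium (chr4:26859223-27027003, plus strand, GRCh37), ranged from 16.5 to 21.4 CPM with collagen, 13.1 to 22.4 with DDR1i and 18.2 to 24.8 with RUNXi. *ORAI1*, which encodes the pore of the entry channel (chr12:122064414-122081124, plus strand, GRCh37), was at 18.0, 36.4 and 31.3 CPM with collagen, and ranged from 21.0 to 33.7 with DDR1i and from 22.5 to 27.3 with RUNXi. Groups overlapped for all 3 genes. The log2 fold changes of *STIM1* against collagen were 0.25 (SE 0.16) with DDR1i and 0.35 (SE 0.16) with RUNXi, not smaller than those of *ATP2C1*. Those of *STIM2* were 0.03 (SE 0.21) and 0.12 (SE 0.21). *ORAI1* was the only member with a log2 fold change below 0 in both comparisons, at -0.11 (SE 0.21) with DDR1i and -0.16 (SE 0.21) with RUNXi.

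Against collagen, 3 of the 10 members were past the threshold of the edgeR test with DDR1i (*ATP2B4*, *ATP2A2* and *ITPR3*), all higher, where 229 of 13548 tested genes were called higher (1.69%). With RUNXi 3 members were called, all higher (*ATP2B4*, *ATP2B1* and *ITPR3*), where 351 genes were (2.59%). The set was selected on these contrasts, so that nothing is read from the counts, and the place of *ATP2B4* in them was fixed by the choice. With DESeq2 4 members were called with each inhibitor, all higher (*ITPR2* in addition with DDR1i and *ATP2A2* with RUNXi). DESeq2 called 495 of the 13548 genes higher with DDR1i (3.65%) and 624 with RUNXi (4.61%). With DDR1i 5 members and with RUNXi 6 had every inhibitor library above every collagen library. The share of all tested genes that separated in this way was not computed, here or in the other comparisons. Nothing is therefore read from such counts. The median log2 fold change was 0.40 over the members and 0.003667 over all tested genes with DDR1i, and 0.41 and 0.005121 with RUNXi. With collagen replicate 3 included, 0 of the other 9 members were called by edgeR in either comparison (3 with DDR1i and 2 with RUNXi at an unadjusted p-value under 0.05), where 6 of 13361 genes (0.0449%) were higher with DDR1i and 31 (0.232%) with RUNXi. At the unadjusted threshold, 4.42% of all genes were higher with DDR1i and 5.5% with RUNXi.

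Promoters of the other 3 members past a threshold are shown to compare them with that of *ATP2B4*, with the same motifs in capitals (RefSeq, GRCh38.p14). They are at chr6:33621072-33621321 (plus strand) for *ITPR3*, chr12:110280366-110280615 (plus strand) for *ATP2A2* and chr12:89709367-89709616 (minus strand) for *ATP2B1*.
ITPR3: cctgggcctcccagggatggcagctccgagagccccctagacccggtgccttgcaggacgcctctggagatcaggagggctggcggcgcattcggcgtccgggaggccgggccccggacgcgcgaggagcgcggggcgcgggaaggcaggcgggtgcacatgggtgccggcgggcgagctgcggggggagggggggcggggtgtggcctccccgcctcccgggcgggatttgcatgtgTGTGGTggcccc
ATP2A2: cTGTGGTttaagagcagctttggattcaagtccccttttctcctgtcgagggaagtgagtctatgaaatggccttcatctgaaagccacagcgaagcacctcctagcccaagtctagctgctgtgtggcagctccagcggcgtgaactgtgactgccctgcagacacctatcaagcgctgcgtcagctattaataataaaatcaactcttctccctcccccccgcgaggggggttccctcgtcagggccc
ATP2B1: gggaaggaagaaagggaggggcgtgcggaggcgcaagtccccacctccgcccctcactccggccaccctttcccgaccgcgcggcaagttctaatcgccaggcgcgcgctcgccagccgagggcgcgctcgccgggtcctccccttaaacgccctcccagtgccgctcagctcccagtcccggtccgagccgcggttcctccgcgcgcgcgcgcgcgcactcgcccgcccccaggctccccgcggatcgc
The match in *ITPR3* begins 12 bases and that in *ATP2A2* 249 bases before the start, both on the plus strand. *ATP2B1* holds none in this window, nor do *ITPR1*, *STIM1* and *STIM2*, while *ATP2C1*, which was not called in any comparison, holds 1. GC content was 55.6% for *ATP2B4*, 54.8% for *ATP2A2*, 76.8% for *ITPR3* and 75.2% for *ATP2B1*, and the median of all promoters was 58.0%. *ITPR2* and *ORAI1* had no entry.

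**Figure D2:**
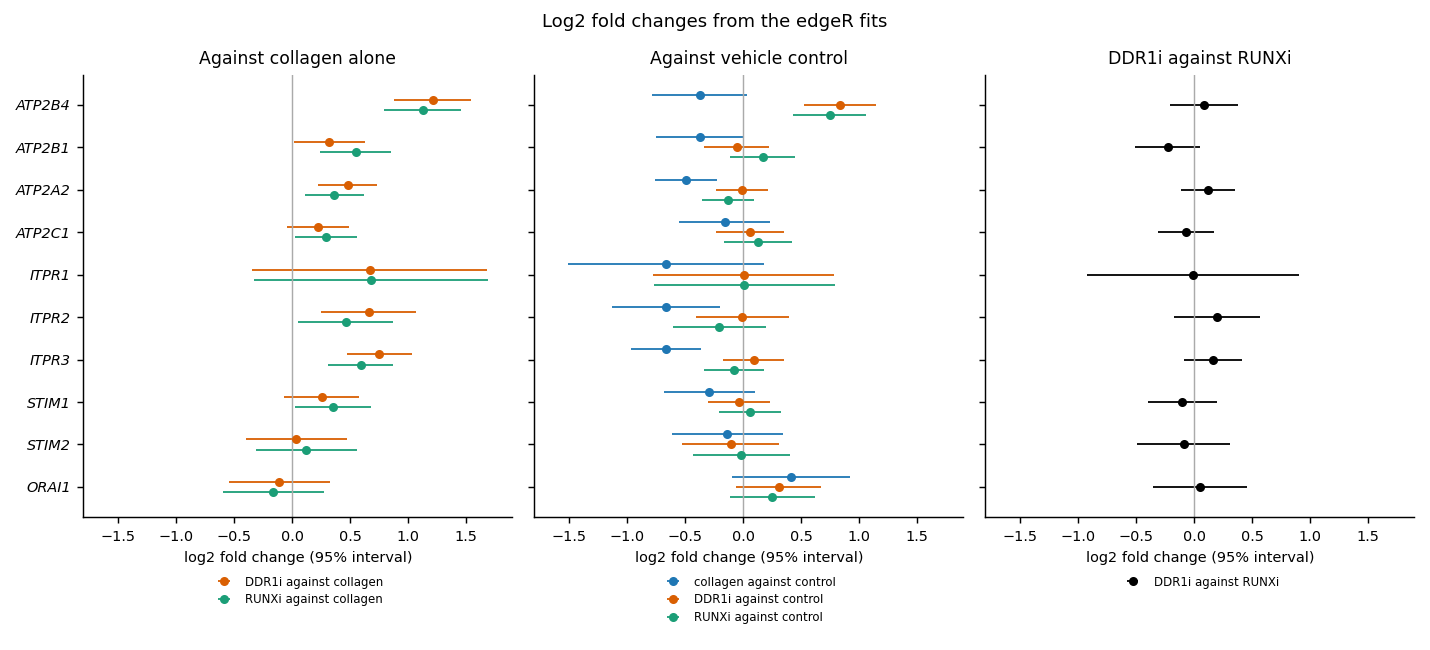
Log2 fold changes (horizontal axis) of the 10 genes (vertical axis) from the edgeR fits, with 95% intervals as bars. Left, each inhibitor against collagen; middle, collagen and each inhibitor against the control; right, DDR1i against RUNXi. Against the control only *ATP2B4* (0.83 and 0.75) lies clear of 0 with an inhibitor, and in the right panel all 10 intervals include 0.

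Collagen alone was compared with the control to see how the members stood with collagen and no inhibitor. None of the 10 genes and none of 13092 tested genes was past the threshold by the quasi-likelihood test of edgeR after Benjamini-Hochberg adjustment (0.0%). At an unadjusted p-value under 0.05, 4 members were lower with collagen (*ATP2B1*, *ATP2A2*, *ITPR2* and *ITPR3*), where 6.98% of all genes were. With DESeq2 and adjustment, 2 were lower (*ATP2A2* and *ITPR3*), where 1.72% of all genes were. Log2 fold changes were below 0 for 9 of the 10, with a median of -0.38 (0.01 over all tested genes). Of all tested genes 50.92% were above 0, and of those with transcripts over 6000 bases 22.6% were. *ATP2B4* was chosen on these collagen libraries, and the comparisons of the inhibitors with collagen share them. Nothing is therefore read from this count or from the place of *ATP2B4* in it.

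*ITPR3* was at 322, 304, 422 and 304 CPM in the control and at 187 to 228 CPM with collagen. The log2 fold change was -0.66 (SE 0.14; adjusted p = 0.107, edgeR quasi-likelihood test). *ATP2A2* was at 426, 407, 454 and 521 CPM in the control and at 300.2 to 348 CPM with collagen, a log2 fold change of -0.49 (SE 0.13; adjusted p = 0.135, the same edgeR test). *ITPR2* was at 24.7 to 38.0 CPM in the control and 17.2 to 19.2 with collagen, at -0.66 (SE 0.22; adjusted p = 0.210, edgeR). In these 3 genes and in *ATP2B4* (-0.37, SE 0.19) all collagen libraries were below all control libraries. The other members overlapped, with values from -0.66 (SE 0.40) for *ITPR1* to 0.41 (SE 0.24) for *ORAI1* and adjusted p-values from edgeR of 0.367 to 0.867. Collagen replicate 3, at 363 CPM for *ITPR3*, 445 for *ATP2A2* and 30.6 for *ITPR2*, was within the control range in all 3 genes, and with it included the log2 fold change of *ITPR3* was -0.43 and no member was called.

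The inhibitor groups were next compared with the control, a comparison that combines collagen and inhibitor. *ATP2B4* was the 1 member called with DDR1i, where 20 of 13213 genes (0.151%) were called higher, and the 1 member called with RUNXi, where 32 genes (0.242%) were. Its log2 fold change was 0.83 (SE 0.15) with DDR1i and 0.75 (SE 0.15) with RUNXi, and all 4 libraries of each inhibitor were above all control libraries. The inhibitor libraries are those on which the gene was chosen, so that nothing is read from these calls, and both comparisons share the control. The call was lost with DDR1i without control replicate 2 or DDR1i replicate 3 or 4, and with RUNXi without control 1, 2 or 3 or RUNXi 2 or 4, while the log2 fold change stayed within 0.75 to 0.94 and 0.68 to 0.84. Without control replicates 2 and 3 together it was called with neither.

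The other 9 members were not called against the control with either inhibitor. The 2 that had been called lower with collagen by DESeq2 had means close to the control: *ITPR3* was at 338 ± 56.4 CPM in the control, 358 ± 55.1 with DDR1i and 321 ± 44.01 with RUNXi (SD, n = 4 each), and *ATP2A2* was at 452 ± 50.0, 447 ± 62.8 and 413 ± 44.2 CPM. Their log2 fold changes were 0.09 and -0.07 for *ITPR3* and -0.01 and -0.13 for *ATP2A2*. *ORAI1* had the largest of the 9 with each inhibitor, at 0.31 (SE 0.18) and 0.25 (SE 0.18), with an adjusted p-value of 0.998 and 0.854 by edgeR, and every RUNXi library was above every control library for it. Its control libraries were the least scattered of any group, at 20.9 to 22.2 CPM.

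DDR1i and RUNXi were compared directly in the same fit. No member was called, where 77 of 13548 genes (0.568%) were called in either direction by edgeR, and no member had an unadjusted p-value under 0.05 or was called by DESeq2. For *ATP2B4* the difference was 0.09 on the log2 scale, with a 95% interval of -0.21 to 0.38 (adjusted p = 0.999, edgeR quasi-likelihood test). A p-value of this size does not show that the inhibitors act alike, since the data leave room for any difference within that interval. *ATP2B4* was also chosen as higher with both inhibitors, which favours a small difference between them, so that nothing is read from its value here. *ATP2B1* had the largest difference, at -0.23 for DDR1i against RUNXi (-0.51 to 0.05; adjusted p = 0.940, edgeR), and *ITPR1* the widest interval, -0.92 to 0.91. The libraries of both inhibitors overlapped for all 10 genes.

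The size of the differences went with the length of the transcript. For 6 members the canonical transcript has over 6000 bases (7062 for *ATP2B1*, 8295 for *ATP2A2*, 8697 for *ATP2B4*, 9079 for *ITPR3*, 9908 for *ITPR1* and 12564 for *ITPR2*), where the median of all tested genes was 3260. *STIM1*, *ATP2C1* and *STIM2* have 4168, 4994 and 5004 bases, and *ORAI1* has 1496. Over all genes with DDR1i against collagen, the median log2 fold change was -0.22 in transcripts of up to 1500 bases and 0.27 in those over 6000 bases, and 24.6% and 75.9% of genes were above 0. With RUNXi the medians were -0.26 and 0.27. Collagen against control showed the opposite order, 0.29 and -0.29, and DDR1i against control almost none, 0.06 and -0.03.

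Where the trend with length was taken out of each library, 0 of the other 9 members were called against collagen by edgeR (1 with DDR1i and 2 with RUNXi at an unadjusted p-value under 0.05). At that unadjusted threshold, 4.26% of all genes were higher with DDR1i and 6.31% with RUNXi. The log2 fold change of *ATP2B4*, given without a test, was then 0.89 (SE 0.14) with DDR1i and 0.84 (SE 0.14) with RUNXi, and 0.78 and 0.73 against the control. The values against collagen were 0.43 and 0.31 for *ITPR3*, 0.18 and 0.10 for *ATP2A2*, and 0.06 and 0.32 for *ATP2B1*. In that fit 33 genes (0.254%) were higher with DDR1i and 80 (0.616%) with RUNXi. The share of higher among all calls also moved, from 229 of 334 to 33 of 157 genes with DDR1i and from 351 of 549 to 80 of 204 with RUNXi, and the median of all genes moved to -0.05 with DDR1i against collagen and to -0.11 against the control. The step subtracted the whole fitted curve, so that each library was also re-centred on its mean log2 CPM. The parts of length and of re-centring in the lost calls cannot be told apart. *ITPR3* with DDR1i was then just short of the threshold (adjusted p = 0.0588, edgeR quasi-likelihood test). What lies behind the trend with length was not tested.

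**Figure D3:**
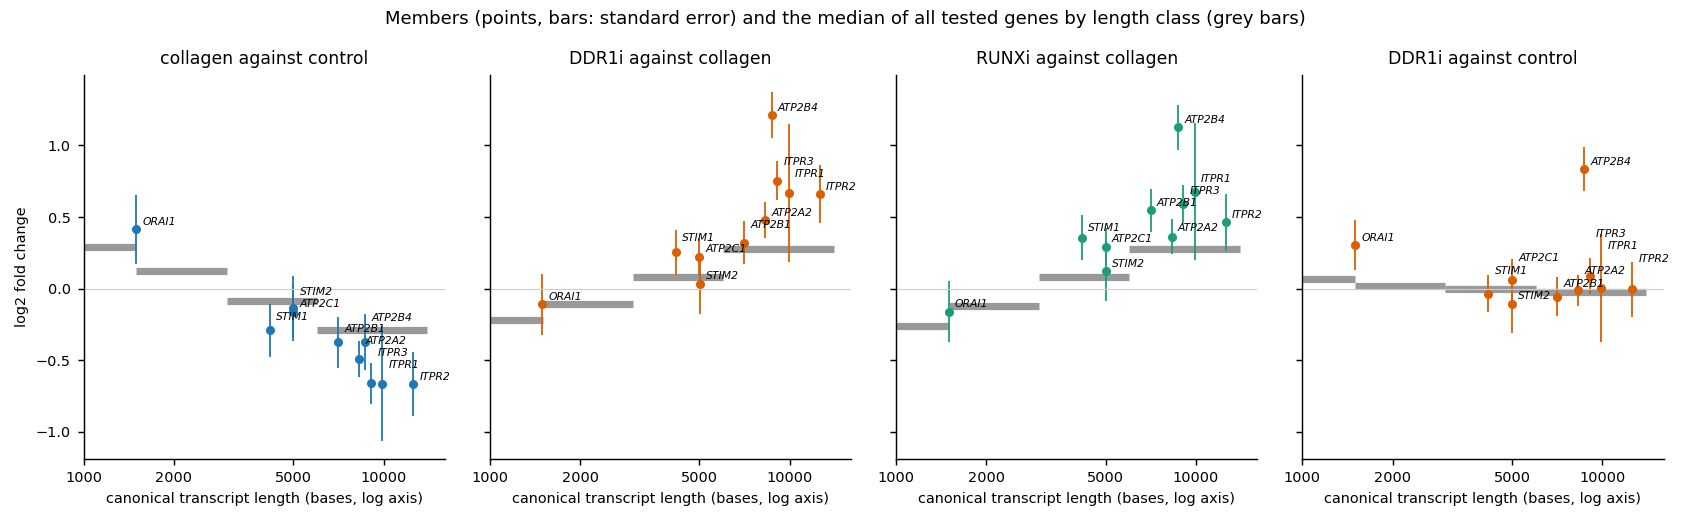
Log2 fold change (vertical axis) against canonical transcript length in bases (horizontal log axis) in 4 comparisons. Points are the 10 members with standard errors, and grey bars are medians of all tested genes in 4 length classes. In the first 3 panels the members lie on the same side of 0 as their length class, and *ATP2B4* lies farthest above its class with each inhibitor and also in DDR1i against control (0.83).

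To compare levels between genes, CPM was divided by transcript length. *ATP2A2* had the highest mean, at 50.1 CPM per kb over 16 libraries (36.2 to 63.7), and *ITPR3* came next at 34.9 (20.6 to 46.5). *ORAI1* (16.8), *ATP2C1* (16.7), *STIM1* (12.98) and *ATP2B1* (10.0) followed. Over all libraries *ATP2B4* was at 5.74 (3.07 to 9.02) and *STIM2* at 4.01 (2.61 to 4.96). *ITPR2* (2.10, 1.37 to 3.03) and *ITPR1* (0.89, 0.32 to 1.72) were lowest. The ranges over libraries of all neighbours in this order overlapped, and the order differed between groups: with collagen *ATP2B4* (3.28) was below *STIM2* (3.798), and in the control *ORAI1* (14.4) was below *ATP2C1* (16.3). The type 3 gene was the most abundant of the IP3 receptor genes in every library.

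Shares within each family were computed from counts scaled by length, as a description. *ATP2B4* made up 29.4 ± 1.21% of the *ATP2B4* and *ATP2B1* signal in the control and 29.6 ± 2.86% with collagen. With DDR1i its share was 39.3, 39.8, 44.1 and 50.8%, and with RUNXi 37.4, 40.3, 37.5 and 37.9%. All inhibitor libraries were thus above all collagen and control libraries, and collagen replicate 3, at 36.2%, lay between. *ATP2B4* was chosen for its level in these libraries, so that nothing is read from this separation. *ITPR3* made up 91.7 ± 1.98% of the IP3 receptor signal in the control, 91.9 ± 0.82% with collagen, 92.4 ± 1.31% with DDR1i and 92.1 ± 2.04% with RUNXi. *STIM1* made up 76.2 ± 3.21%, 73.7 ± 6.05%, 77.2 ± 4.77% and 76.99 ± 4.56% of the STIM signal. In these 2 families the groups overlapped.

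**Figure D4:**
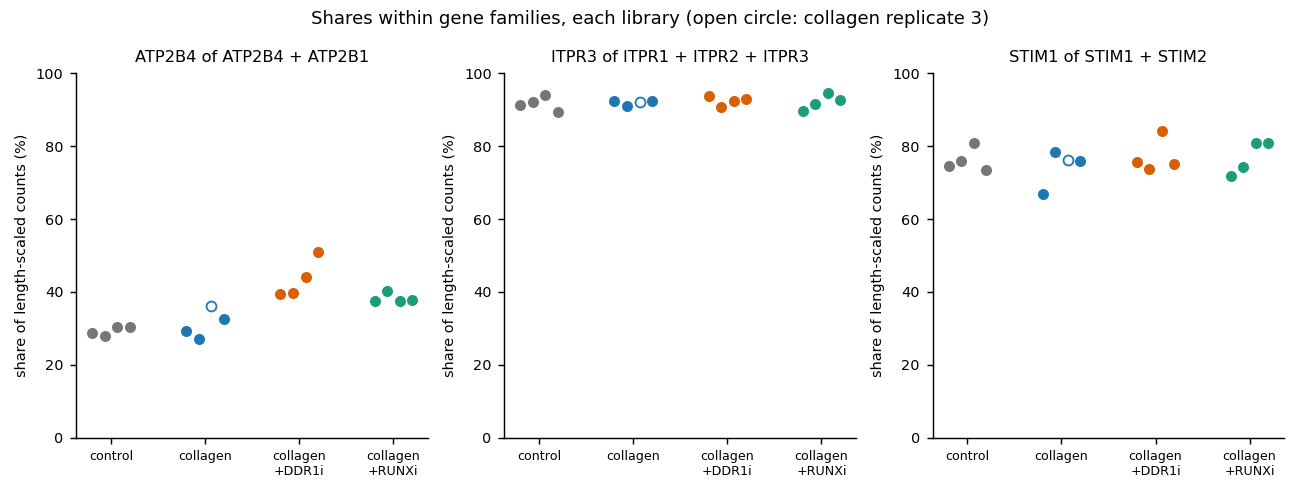
Share of each family's length-scaled counts (vertical axis, percent) taken by *ATP2B4*, *ITPR3* and *STIM1* in each library (points) by group (horizontal axis); the open circle is collagen replicate 3. The *ATP2B4* share, of a gene chosen for its level in these libraries, is 37.4% or more in the 8 inhibitor libraries. It is 32.6% or less in the 3 collagen libraries, while the *ITPR3* and *STIM1* groups overlap.

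The other genes of the pathway were taken from 8 lists. Of their 94 genes, 92 were in the table and 72 were tested, and their median log2 fold change was -0.02 with DDR1i and -0.04 with RUNXi against collagen. The edgeR test called 2 of the 72 with DDR1i, where 2.47% of all tested genes were called in either direction, and 1 with RUNXi, where 4.05% were. Of 11 tested genes of IP3 production, *PLCG1*, a phospholipase C activated by receptor tyrosine kinases, was higher with both inhibitors by the edgeR test, against the same collagen libraries. It was at 118 ± 9.75 CPM with DDR1i (n = 4), 118 ± 10.2 with RUNXi (n = 4) and 79.3 ± 9.81 with collagen (n = 3), with log2 fold changes of 0.58 (SE 0.13; adjusted p = 0.0169) and 0.57 (SE 0.13; adjusted p = 0.018). Collagen replicate 3 was at 132 CPM, above both inhibitor means, and with it included the adjusted p-values from edgeR were 0.537 and 0.373. With the length trend removed they were 0.193 and 0.153.

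Of 10 tested genes of mitochondrial calcium uptake, *MICU2*, a gatekeeper subunit of the uniporter, was lower with DDR1i by the edgeR test. It was at 44.9 ± 7.44 CPM (n = 4) with DDR1i and 74.1 ± 21.4 (n = 3) with collagen (log2 fold change -0.72, SE 0.18; adjusted p = 0.0286), and at -0.63 with the length trend removed (adjusted p = 0.0411). With collagen replicate 3, at 46.4 CPM, included, the adjusted p-value from edgeR was 0.454. In this list 1 gene had a value above 0 with DDR1i and 0 with RUNXi, where 50.35% and 50.5% of all tested genes had. In collagen against control, which shares the collagen libraries, 8 of the 10 were above 0, and nothing is read from these counts. No gene was called among 4 tested other pumps and exchangers, 2 pump partners, 7 partners of store-operated entry, 9 regulators of IP3 receptors with ryanodine receptors, 12 genes of calcium handling in the endoplasmic reticulum, and 17 of the calmodulin, calcineurin and NFAT list. In the other 4 comparisons, 0 of the 72 genes were called.

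The genes whose log2 CPM followed *ATP2B4* most closely over the 16 libraries were *CREB3L2* (Pearson's r = 0.89), *THSD4* (0.89), *CDH4* (0.88), *TNFRSF10B* (0.88) and *CLIP1* (0.87), of 13517 genes with a median r of 0.05. These values describe libraries that share the group differences and the trend with transcript length, and 1334 genes had an r above 0.5. Among the members, *ATP2C1* (0.65, rank 404), *ITPR3* (0.63), *ATP2B1* (0.62), *ATP2A2* (0.61) and *ITPR2* (0.60) came closest, *STIM1* (0.39) and *ITPR1* (0.34) followed, and *STIM2* (0.10) and *ORAI1* (0.02) were near or under the median of all genes. Transcripts of the drug targets do not check inhibition of the proteins, and no test of them is given. *RUNX1* was at 49.6 ± 10.0 CPM (SD, n = 3) with collagen, 61.5 ± 6.88 (n = 4) with DDR1i and 61.2 ± 5.87 (n = 4) with RUNXi. In the control it was at 53.7 ± 11.7 CPM (n = 4). *DDR1* was at 129 ± 1.83, 127 ± 16.85, 142 ± 16.6 and 146 ± 15.5 CPM in the same order. *CBFB*, the gene of the RUNX partner, was at 70.3 ± 3.84, 63.3 ± 5.64, 61.45 ± 5.89 and 61.7 ± 6.61 CPM.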

How the data were processed

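RNA-seq libraries of MCF10A cells, 16 in 4 groups of 4, were assigned to groups from the deposited labels, with doses and times from the treatment protocol and the study's methods. The authors aligned reads to hg19 (GRCh37) with STAR and deposited raw counts per gene, neither normalized nor filtered. The counting tool, annotation and use of strand are not given in the sources used here, so that reads shared with antisense or overlapping genes are uncertain; no canonical exon of a member overlapped one of another gene in the table.

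The 10 members and all lists were chosen with earlier results of these data known. Genes named are the members, the pathway genes past the threshold and the 5 genes most correlated with *ATP2B4*. Tests used edgeR 4.0.16 under R 4.3.3 (TMM, filterByExpr, robust quasi-likelihood test) with Benjamini-Hochberg adjustment over all tested genes, in fits of 11 libraries (inhibitors and collagen), 7 (collagen and control) and 12 (inhibitors and control). Collagen replicate 3, which the authors removed, was left out. The standard error is the log2 fold change divided by the root of its F statistic. Length trends were removed with splines of 4 degrees of freedom per library, a step that also re-centred each library on its mean log2 CPM. Log2 CPM used a prior count of 2. Gene positions and lengths came from GENCODE lifted to GRCh37 (21991 names matched), promoters from RefSeq. The alternatives covered DESeq2 1.42.0, normalization, filters, the groups in the fit, a replicate block, collagen replicate 3, the length trend, control replicates 2 and 3, and leaving out each library. Figures used Python 3.11.15 and matplotlib 3.10.9.

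The test was tried on simulated data with 2-fold changes planted in the means of the real libraries. It called 134 of 197 changed genes (68.0%) in the inhibitor fit of 13269 genes, 97 of 191 (50.8%) in the collagen and control fit of 12707, and 115 of 198 (58.1%) in the inhibitor and control fit of 12964, with 0 in the wrong direction and 8, 10 and 5 unchanged genes called. Simulated libraries were drawn independently around a common mean per gene, with no trend with length and no deviations shared by replicate number. These rates may therefore not hold in the real libraries. The planted change was also larger than that of any member but *ATP2B4* in the chosen fits.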

Additional observations from a re-analysis of the deposited data

Results flagged for a closer look

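In 3 of 40 sets of 4 libraries (10 genes in 4 groups), 1 library stood apart from the others of its group, with a gap to its nearest neighbour above Dixon's 95% critical share of the group's range, which chance gives in about 2 of 40. *ITPR2* was at 30.6 CPM in collagen replicate 3 (gap 0.851 of the range), above the other 3 collagen libraries. *ITPR3* was at 422 CPM in control replicate 3 (0.843), above the other control libraries. *ORAI1* was at 22.5 CPM in RUNXi replicate 2 (0.831), below the other RUNXi libraries. The first is in the library that the study removed, and the others stayed in every mean and test.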

How the results depend on the processing

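Counts of members here include *ATP2B4*, which the choice of the set put past the threshold. Against collagen, 3 members were called with each inhibitor, 4 with each by DESeq2, 1 with each when collagen replicate 3 was included or the length trend was removed, and 5 (DDR1i) and 7 (RUNXi) at an unadjusted p-value. At an unadjusted p-value under 0.05 by edgeR, 9.88% of all tested genes were higher with DDR1i and 10.8% with RUNXi. Leaving out 1 library gave 2 to 4 members with DDR1i and 1 to 3 with RUNXi (1 without collagen 4, RUNXi 3 or RUNXi 4). Against the control, the 1 member called with each inhibitor became 0 without control replicates 2 and 3, and 0 to 1 when 1 library was left out. Collagen against control gave 0 members in the chosen fit and whenever 1 library was left out, 2 with DESeq2, 1 with no filter, 2 with all 4 groups in the fit and 4 at an unadjusted p-value. Over all genes, 1.72%, 0.986%, 1.46% and 6.98% were lower by DESeq2, with no filter, with all 4 groups and at an unadjusted p-value. DDR1i against RUNXi gave 0 in every alternative run. The causes of these differences were not tested. Over all genes, calls fell from 334 to 9 (DDR1i) and from 549 to 60 (RUNXi) against collagen when collagen replicate 3 was included, and collagen against control rose from 0 to 415 with DESeq2.

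A replicate block gave 4 members with DDR1i against collagen (*ITPR2* in addition, log2 fold change 0.67), 3 with RUNXi, 0 for DDR1i against RUNXi, 0 for collagen against control, and 1 for each inhibitor against the control. Over all genes it gave 537, 759, 154, 0, 116 and 162 calls, where the fits without it gave 334, 549, 77, 0, 28 and 53. Libraries with the same number shared deviations with a correlation above 0.1 in 4 of 10, 1 of 3 and 4 of 12 pairs of the inhibitor, collagen and inhibitor-control fits. Libraries with different numbers did so in 0 of 30, 0 of 9 and 3 of 36 pairs. The median correlations were 0.07, 0.03 and 0.08 for the same number and -0.03 in each fit for different numbers. The chosen fits leave the numbers out, and whether they mark paired libraries was not settled.

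With biological coefficients of variation of 0.287 to 0.353 and 3 or 4 libraries a group, differences of the size seen for *STIM1*, *STIM2* and *ORAI1* may be missed, and *ITPR1*, at a few CPM, had intervals too wide to place its direction.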
